A study of Rattus norvegicus with 10 samples.

Results

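Transcripts of the circadian clock were examined in the supraoptic nucleus, a hypothalamic nucleus of magnocellular neurons that release vasopressin and oxytocin. The genes were Arntl, Clock, Per1, Per2, Per3, Cry1, Cry2, Nr1d1, Nr1d2 and Dbp, taken by symbol from the deposited table. All 10 were among its 32623 rows, each under 1 identifier, and all 10 were among the 15597 genes tested.

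The tissue came from male Sprague Dawley rats, an outbred strain, of 250 to 300 g kept under 12 h of light and 12 h of dark. Every rat had received 2 adeno-associated viruses, one in each nucleus. One carried a short hairpin RNA against Opn3, the transcript of the light-sensitive receptor opsin 3 (group shOpn3, n = 5), and the other a hairpin with no target (group shControl, n = 5). Both groups therefore carry a virus and a hairpin, and no nucleus without virus was analysed here. Each nucleus was punched from frozen sections and extracted alone 2 weeks after the injection. The promoter of the hairpins, the cells they entered, the side of each virus and the hour of collection were not given in the sources used here. Samples with the same replicate number were taken as the nuclei of the same rat, a reading that rests on their shared deviations and not on a label.

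The clock is a loop of transcription and repression that runs in most cells and keeps time with the day. ARNTL (also called BMAL1) and CLOCK pair up and bind E-boxes in the genes of their own repressors, the PER and CRY proteins, which return to the nucleus and silence them. The same pair drives Nr1d1 and Nr1d2, whose products REV-ERB alpha and REV-ERB beta hold down Arntl, and Dbp, whose product passes the rhythm on to other genes through D-boxes. In rodents the master clock lies in the suprachiasmatic nucleus, close to the supraoptic nucleus.

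For each gene the table gave a normalized count, which is a read count divided by 1 size factor per sample. Sequencing depth was 33158341 to 39958578 reads per sample, and each clock gene was covered by 315 to 5115 reads in every sample. The target itself, Opn3 (ENSRNOG00000003778), stood at 719, 694, 841, 1007 and 261 in shControl replicates 1 to 5 and at 290, 193, 159, 154 and 145 in shOpn3 replicates 1 to 5. All 5 pairs fell, although shControl replicate 5 lay below shOpn3 replicate 1. Between the groups, limma called 2940 of all genes tested (18.8%) at an adjusted p under 0.05, and 4726 (30.3%) once the replicate number entered as a block. Some lists of cell type markers moved as a whole between the groups in the limma fit, and others did not. All 8 oligodendrocyte markers fell, with a summed normalized count of 731349 to 1246220 in shControl and 249044 to 470895 in shOpn3. All 8 microglial markers rose, from sums of 9257 to 13124 to sums of 17413 to 36011. All 8 magnocellular markers fell, from 67686 to 184949 down to 14012 to 39717. Of 8 neuron markers 1 rose and 2 fell, and of 8 astrocyte markers 3 rose and 0 fell. Of 6 endothelium and blood markers 0 were called. In such punches fewer cells of a type and less RNA per cell cannot be told apart.

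No clock gene changed past the threshold. With limma, 0 of the 10 had an adjusted p under 0.05, against 18.8% of all genes tested, and 0 of the 10 did so with edgeR, with DESeq2 or with limma and the number as a block. Arntl alone had an unadjusted p under 0.05, so 1 of the 10 did, against 32.0% of all genes tested. The groups overlapped for all 10, while they did not overlap for 15.3% of all genes tested. The median size of the log2 fold change was 0.06 over the 10 genes and 0.19 over all genes tested. Of the 10 estimates, 6 were above 0 and 4 below. The 95% intervals of the 10 differences, not adjusted for their number, ran between -0.47 and 0.38 on the log2 scale, or between -0.34 and 0.31 with the block.

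**Figure D1:**
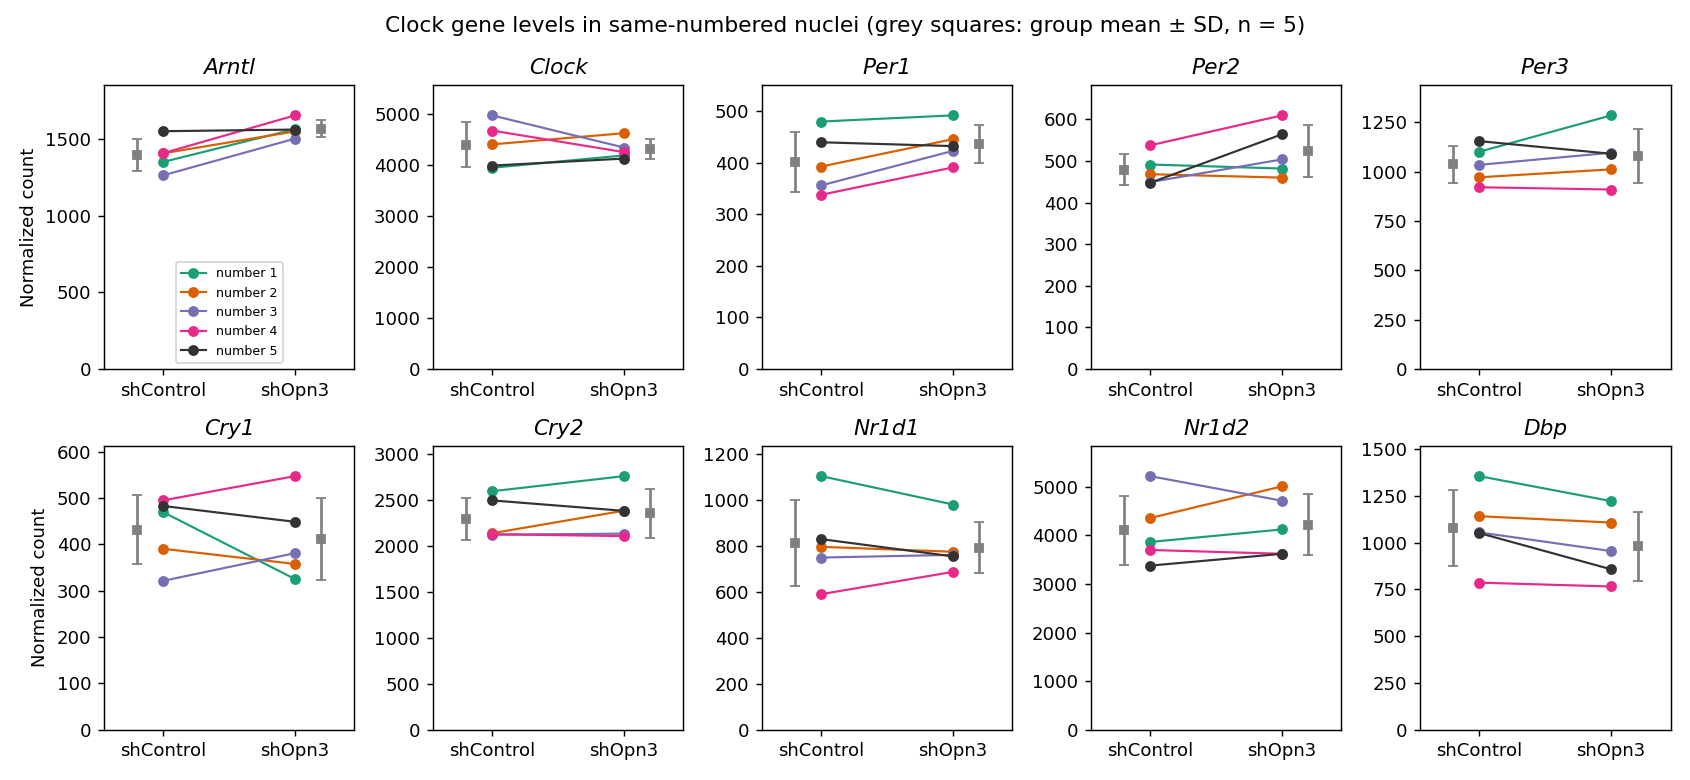
Normalized counts (vertical axes, from 0) of the 10 clock genes in shControl and shOpn3 nuclei; coloured lines join samples with the same replicate number and grey squares give the group mean ± SD (n = 5 each). The groups overlap in every panel, all 5 lines rise for Arntl and all 5 fall for Dbp.

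The activators came first. Arntl (ENSRNOG00000014448) had 1353, 1409, 1265, 1410 and 1554 normalized counts in shControl replicates 1 to 5 and 1568, 1553, 1506, 1658 and 1565 in shOpn3 replicates 1 to 5. It was higher in shOpn3 in 5 of 5 pairs, and the groups overlapped only because shControl replicate 5 reached into the shOpn3 range. The means were 1398 ± 105 and 1570 ± 55.1 (n = 5 each, SD), with a log2 fold change of 0.17 (SE 0.0709; interval 0.01 to 0.32; limma adjusted p = 0.121). With the block the limma adjusted p was 0.0580, and the authors' deposited table gave an adjusted p of 0.0877 for it. That was the lowest among the 10 genes, of which 0 were under 0.05 in the authors' deposited table, against 21.3% of the genes it lists with an adjusted p. The number 5 pair stood at 101% of its control, whereas the 4 other pairs stood at 110% to 119%.

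Clock (ENSRNOG00000002175), the partner of Arntl, had 3951, 4411, 4981, 4682 and 3994 normalized counts in shControl and 4194, 4631, 4348, 4258 and 4132 in shOpn3. Numbers 3 and 4 were lower and numbers 1, 2 and 5 higher in shOpn3. The log2 fold change was -0.03 (SE 0.0775; interval -0.19 to 0.14; limma adjusted p = 0.857), and its sign turned with total read scaling and with quantile normalization.

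Arntl is held down by the REV-ERB receptors, which together with the activating ROR receptors read an AGGTCA half-site. The RefSeq promoter window of Arntl, from 250 bases before to 50 bases after the start site, holds 1 such half-site. It is shown in capitals as the element through which Nr1d1 and Nr1d2 are linked to this gene in the clock literature, at chr1:176766078-176766377 on the plus strand of GRCr8.
Arntl: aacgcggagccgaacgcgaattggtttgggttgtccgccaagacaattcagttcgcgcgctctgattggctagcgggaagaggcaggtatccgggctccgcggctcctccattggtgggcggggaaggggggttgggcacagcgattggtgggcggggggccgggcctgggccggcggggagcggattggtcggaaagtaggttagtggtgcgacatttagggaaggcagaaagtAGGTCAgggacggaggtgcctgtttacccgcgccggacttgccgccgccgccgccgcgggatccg
Its first base lies 15 bases before the start site. The half-site AGGTCA, on either strand, occurs in 16.2% of the 33365 distinct RefSeq promoter windows of this length, and in 2 of the 9 clock genes with a window (Arntl and Nr1d2). Clock and Nr1d1 had 2 windows each, so the count of genes and the share of windows are unlike measures.

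The Period genes encode repressors of the loop that act together with the cryptochromes, and Per1 and Per2 also respond quickly to cAMP signalling and, for Per1, to glucocorticoids. Per1 (ENSRNOG00000007387) had 480, 393, 356, 338 and 440 normalized counts in shControl and 492, 446, 423, 391 and 433 in shOpn3. It was higher in shOpn3 in 4 of 5 pairs, with the number 5 pair at 98.3% of its control. The log2 fold change was 0.13 (SE 0.114; interval -0.12 to 0.38; limma adjusted p = 0.469).

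Per2 (ENSRNOG00000020254) had 491, 468, 449, 537 and 447 normalized counts in shControl and 482, 460, 504, 610 and 564 in shOpn3. Numbers 1 and 2 stood at 98.0% and 98.2% of their control, and numbers 3, 4 and 5 stood at 112%, 113% and 126%. The log2 fold change was 0.13 (SE 0.100; interval -0.09 to 0.34; limma adjusted p = 0.429). Per3 (ENSRNOG00000018413), which is dispensable for the loop itself in mice, had 1100, 971, 1034, 920 and 1154 in shControl and 1285, 1011, 1095, 909 and 1090 in shOpn3. Here 3 pairs were higher and 2 lower, and the log2 fold change was 0.05 (SE 0.101; interval -0.17 to 0.27; limma adjusted p = 0.762).

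The cryptochromes are the strong repressors that bind the ARNTL and CLOCK pair directly. Cry1 (ENSRNOG00000006622) had 470, 391, 321, 495 and 483 normalized counts in shControl and 325, 358, 381, 548 and 449 in shOpn3. Its pairs were the most discordant of the 10 genes, from 69.2% of control in number 1 to 119% in number 3. The log2 fold change was -0.07 (SE 0.161; interval -0.42 to 0.28; limma adjusted p = 0.793), and without shOpn3 replicate 1 it was 0.0047. Cry2 (ENSRNOG00000007478) had 2593, 2137, 2121, 2126 and 2494 in shControl and 2758, 2382, 2133, 2106 and 2380 in shOpn3. No pair of Cry2 differed by more than 0.16 on the log2 scale, and the log2 fold change was 0.03 (SE 0.0936; interval -0.17 to 0.24; limma adjusted p = 0.838).

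Nr1d1 (ENSRNOG00000009329) had 1102, 795, 748, 589 and 828 normalized counts in shControl and 979, 773, 760, 686 and 753 in shOpn3. The highest value of each group was that of number 1 and the lowest that of number 4. The log2 fold change was -0.02 (SE 0.150; interval -0.35 to 0.30; limma adjusted p = 0.942), and its sign turned in 6 of 28 alternative fits, among them the fit without shControl replicate 1 (0.10). Nr1d2 (ENSRNOG00000046912) had 3864, 4356, 5220, 3699 and 3377 in shControl and 4122, 5010, 4712, 3620 and 3620 in shOpn3. Numbers 2 and 3 were the highest in both groups, and the log2 fold change was 0.04 (SE 0.128; interval -0.24 to 0.32; limma adjusted p = 0.853).

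Dbp (ENSRNOG00000021027), the output factor, had 1355, 1141, 1054, 786 and 1051 normalized counts in shControl and 1221, 1107, 954, 765 and 857 in shOpn3. All 5 pairs were lower in shOpn3, at 81.5% to 97.4% of the same-numbered control. The spread within each group was wider than that difference, and the log2 fold change was -0.13 (SE 0.154; interval -0.47 to 0.20; limma adjusted p = 0.596). With the block the standard error was 0.0615 and the limma adjusted p was 0.136. Arntl and Dbp were the 2 of the 10 genes with all 5 pairs in 1 direction, which held for 39.5% of all genes tested.

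**Figure D2:**
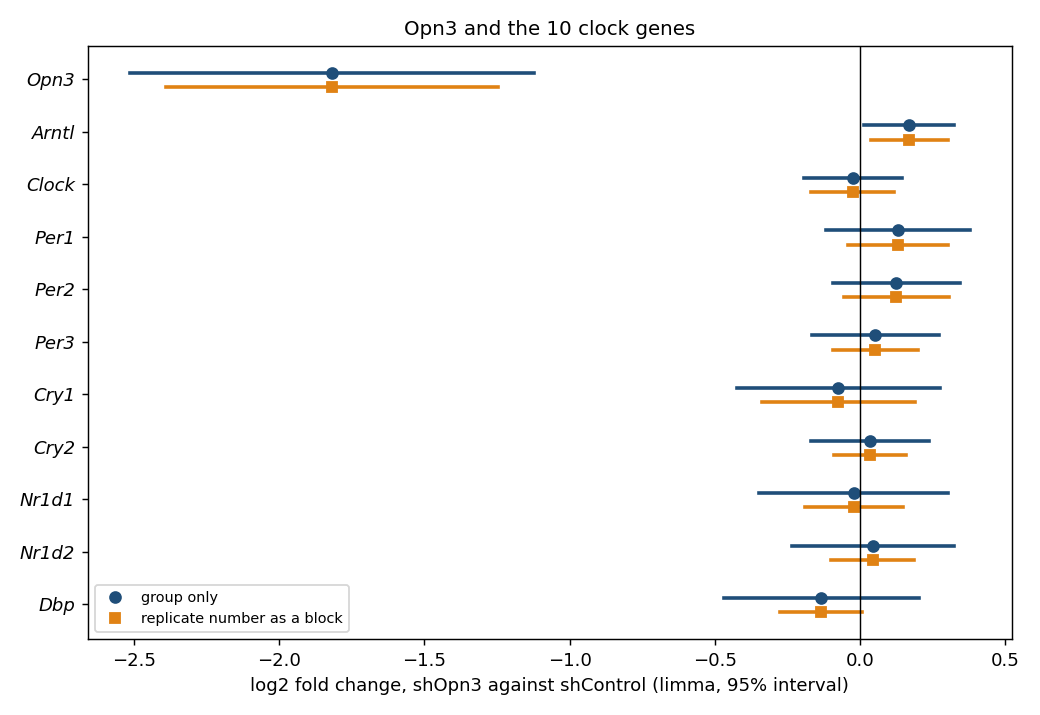
Log2 fold change of shOpn3 against shControl (horizontal axis) for Opn3 and the 10 clock genes, with 95% intervals from limma; blue circles are the fit with the group alone and orange squares the fit that adds the replicate number as a block. The clock genes lie between -0.13 and 0.17, and Opn3 lies at -1.82.

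Samples with the same replicate number tended to deviate alike from their group means for the clock genes. For each gene the variation within the groups was divided into a part shared by same-numbered samples and a part by which they differed. Samples unrelated to each other would also give a shared part, near 50% on average, so values are to be read against 50%. The shared part took 96.5% for Dbp, 91.5% for Nr1d1, 91.3% for Nr1d2, 91.3% for Cry2, 87.9% for Per1 and 86.8% for Per3. It took 71.3% for Cry1, 70.4% for Per2, 65.7% for Clock and 65.6% for Arntl. The median was 87.4% over the 10 genes, 70.1% over all genes tested and 74.2% over the 7745 genes whose mean lay within the range of the 10. Same-numbered samples lay on the same side of their group means in 40 of 50 cases (80%). The share was 65.7% over all genes tested and 69.0% over the 7745 genes. The 50 cases are not independent, since all 10 genes were read in the same samples. Their deviations also correlated, from -0.82 (Cry1 and Nr1d2) to 0.94 (Per1 and Nr1d1). The difference between these shares was not tested.

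**Figure D3:**
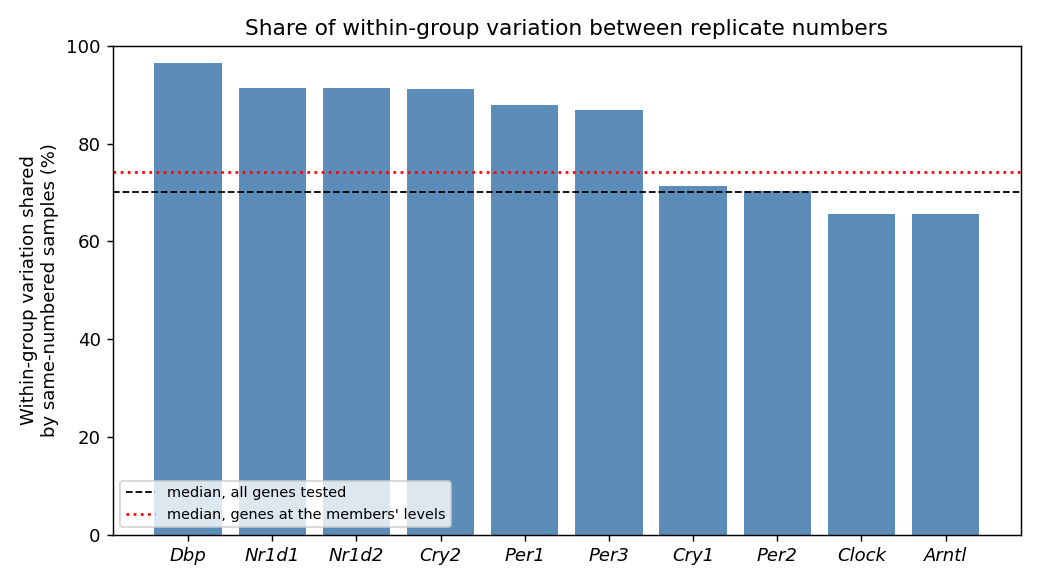
Percent of the within-group variation that same-numbered samples share (vertical axis) for each of the 10 clock genes; the dashed line is the median of all genes tested (70.1%) and the dotted line that of genes at similar levels (74.2%). Dbp is highest at 96.5%, and 6 of the 10 bars stand above both lines by more than 10 percentage points.

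A test of the replicate number was added after these values had been seen. In limma's F-test over the 5 numbers, 1 of the 10 genes passed an adjusted p of 0.05, against 2.67% of all genes tested. That gene was Dbp (limma adjusted p = 0.0421). Nr1d2 and Nr1d1 came next (limma adjusted p = 0.0588 and 0.0599), and Arntl was last (0.546). Without number 1, 2, 3 or 5, 0 clock genes were called and between 7 and 22 genes in all. Without number 4 the calls were 2 clock genes and 2353 genes in all.

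Averaged over both nuclei, Dbp stood at 1288, 1124, 1004, 775 and 954 normalized counts in numbers 1 to 5. The ends of that order were 1.66-fold apart (0.73 on the log2 scale), while the median difference between the nuclei of a number was 0.14. For Nr1d1 the averages were 1040, 784, 754, 637 and 791, so the ends were 1.63-fold apart. Numbers 2, 3 and 5 lay within the differences between nuclei for Nr1d1 and cannot be ranked among themselves.

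By the averages over both nuclei, several of the 10 genes had the same highest and the same lowest number, though their full orders mostly differed. Per1, Per3, Cry2, Nr1d1 and Dbp were all highest in number 1 and lowest in number 4, with ends 1.33-fold, 1.3-fold, 1.26-fold, 1.63-fold and 1.66-fold apart. Within each group both ends held for Per1, Nr1d1 and Dbp. In shControl, Per3 was highest in number 5 (1154) and Cry2 lowest in number 3 (2121). Per2 and Cry1 were highest in number 4, with averages of 573 and 521 normalized counts there and lowest averages of 464 (number 2) and 351 (number 3). Clock and Nr1d2 were highest in number 3 and lowest in number 5, with ends 1.15-fold and 1.42-fold apart. In shOpn3, however, both were highest in number 2 (4631 and 5010). In shControl, Clock was lowest in number 1 (3951). Arntl was lowest in number 3 and highest in number 5, with ends 1.13-fold apart, less than the largest difference between its nuclei (0.25 on the log2 scale). The ends of Per2, 0.31 apart on that scale, also lay within its largest difference between nuclei (0.33). For Clock (0.199 against 0.196) and Cry1 (0.57 against 0.53) the ends barely exceeded that difference. These orders rest on 5 numbers and were not tested.

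**Figure D4:**
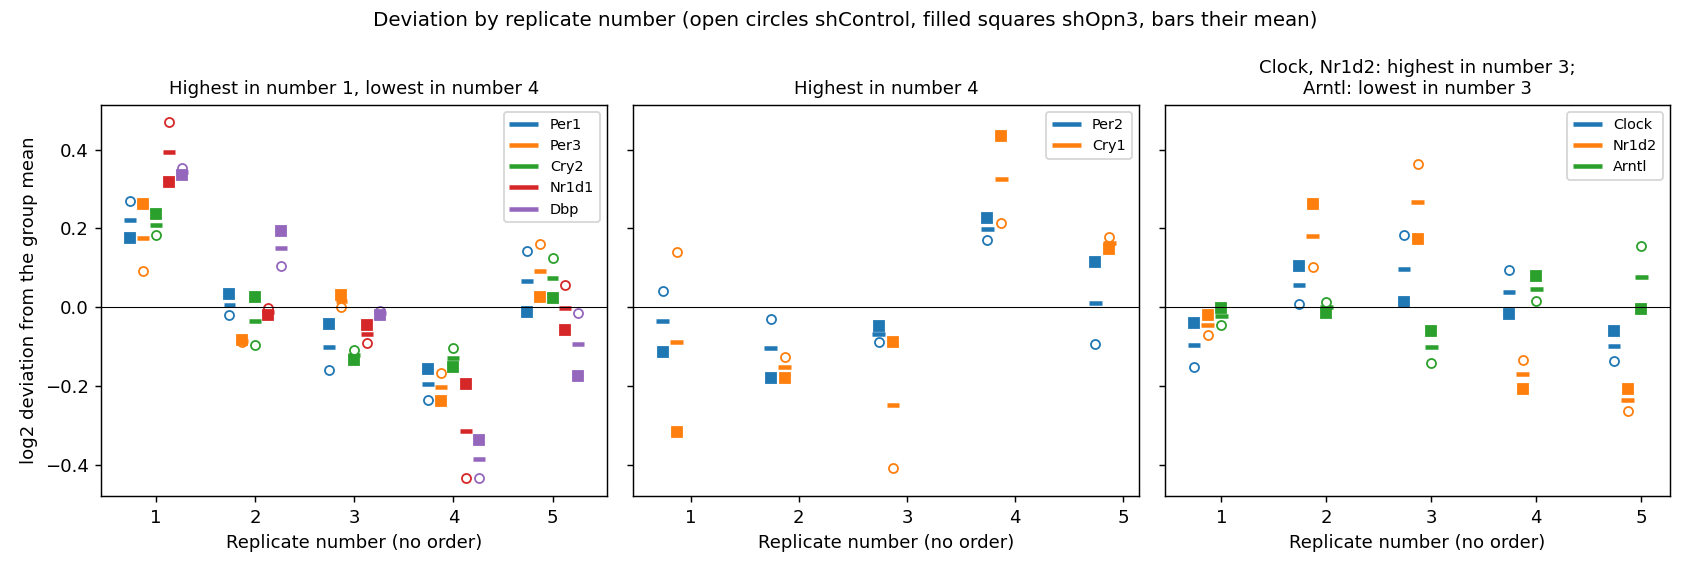
Log2 deviation of each sample from its group mean (vertical axis) by replicate number, with open circles for shControl, filled squares for shOpn3 and bars for the mean of both. In the left panel 5 genes stand above 0 in number 1 and below 0 in number 4; in the middle panel Per2 and Cry1 stand above 0 in number 4.

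Other measures also differed by number. The mitochondrial share of reads, averaged over both nuclei, was 8.06%, 10.2%, 11.1%, 10.7% and 9.0% in numbers 1 to 5, so that it was lowest where Per1, Nr1d1 and Dbp were highest. The summed magnocellular markers were highest in number 1 (112333 normalized counts) and lowest in number 5 (40849). The summed oligodendrocyte markers ran from 490197 in number 2 to 858557 in number 5. On average, the summed suprachiasmatic nucleus and neuron markers were lowest in number 4 (206 and 148893), where the microglial sum was highest (22634). That came from shOpn3 replicate 4 (193, 126808 and 36011). In shControl the microglial sum was instead lowest in number 4 (9257). There the suprachiasmatic nucleus and neuron sums were lowest in number 5 (171 and 130156). The astrocyte sum and the endothelium and blood sum were highest on average in number 5 (404302 and 68443). In shOpn3, however, the astrocyte sum was highest in number 4 (475458). In shControl the endothelium and blood sum was highest in number 1 (76912.5). The part of these measures in the orders of the clock genes was not tested.

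E-boxes and D-boxes are the elements through which the loop acts on its own genes. The promoter windows of Nr1d1, Per2 and Cry2 are shown because they hold such letters. On average over both nuclei, Nr1d1 and Cry2 had the same highest and lowest number, and Per2 had others. Capitals mark E-boxes (CACGTG), related E-prime boxes (CACGTT), D-boxes (TTANGTAA) and AGGTCA, each searched on both strands. The windows lie on the minus strand of GRCr8 at chr10:84229405-84229704 for Nr1d1 (the first of 2 RefSeq start sites listed by coordinate), chr9:99496944-99497243 for Per2 and chr3:98860388-98860687 for Cry2.
Nr1d1: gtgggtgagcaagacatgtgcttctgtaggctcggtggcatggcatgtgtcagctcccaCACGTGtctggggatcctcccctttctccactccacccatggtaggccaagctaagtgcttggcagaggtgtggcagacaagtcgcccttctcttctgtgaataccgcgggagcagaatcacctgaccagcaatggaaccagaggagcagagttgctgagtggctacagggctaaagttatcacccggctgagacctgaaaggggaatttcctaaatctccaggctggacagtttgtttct
Per2: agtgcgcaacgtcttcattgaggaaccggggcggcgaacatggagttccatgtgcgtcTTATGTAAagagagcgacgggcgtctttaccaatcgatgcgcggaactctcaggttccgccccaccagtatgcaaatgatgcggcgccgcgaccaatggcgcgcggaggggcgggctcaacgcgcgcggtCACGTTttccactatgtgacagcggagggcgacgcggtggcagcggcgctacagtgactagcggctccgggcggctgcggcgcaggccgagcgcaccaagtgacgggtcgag
Cry2: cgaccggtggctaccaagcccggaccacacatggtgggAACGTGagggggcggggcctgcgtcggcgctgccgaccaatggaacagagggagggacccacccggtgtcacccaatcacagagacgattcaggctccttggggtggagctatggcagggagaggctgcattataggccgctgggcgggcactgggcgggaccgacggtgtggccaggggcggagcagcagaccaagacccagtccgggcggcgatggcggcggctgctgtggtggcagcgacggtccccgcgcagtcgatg
The E-box of Nr1d1 begins 191 bases before its start site. In Per2 the D-box begins 192 bases and the E-prime box 62 bases before the start site, and in Cry2 the E-prime box begins 212 bases before it. An E-box occurs in 6.43% of all windows and in 1 of the 9 genes (Nr1d1), an E-prime box in 4.84% and in 3 genes (Per2, Cry2 and the second window of Nr1d1), and a D-box in 2.24% and in 1 gene (Per2). A cAMP response element (TGACGTCA) occurs in 1.83% of all windows and in 0 of the 9 genes. These percentages are shares of windows and the counts are of genes, with 2 windows each searched for Clock and Nr1d1. A match is a match of letters in 300 bases and says nothing of elements farther away.

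Further genes of the loop were taken from a list of partners. Of the 11 partners tested, 3 rose in shOpn3, 0 fell and 8 did not pass the test, against 10.4% of all genes tested that rose and 8.48% that fell. Under total read scaling the split over all genes was 2139 higher and 835 lower, in place of 1618 and 1322. With the block 5 rose, against 15.1% of all genes tested, the added genes being Rora and Tef. The median log2 fold change of the list was 0.25, against -0.02 over all genes tested. The list was written with results of these data known.

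Bhlhe40, which encodes DEC1, a repressor that competes with ARNTL and CLOCK for E-boxes, had 1652, 1706, 1757, 1501 and 1752 normalized counts in shControl and 2455, 2547, 2688, 2539 and 2383 in shOpn3. The groups did not overlap and all 5 pairs rose. The means were 1674 ± 106 and 2522 ± 114 (n = 5 each, SD), or 0.59 higher on the log2 scale (limma adjusted p = 0.000306, SE 0.0682). It passed the test in all 28 alternative fits, with a limma, edgeR or DESeq2 adjusted p of at most 0.00444.

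Rorb, a ROR receptor found in neurons, had 465, 508, 490, 473 and 424 normalized counts in shControl and 549, 560, 616, 615 and 556 in shOpn3. The groups did not overlap, and the difference was 0.30 on the log2 scale (limma adjusted p = 0.0263, SE 0.0830). Npas2, which can stand in for Clock as the partner of Arntl, had 646, 552, 530, 595 and 646 in shControl and 650, 729, 778, 726 and 704 in shOpn3. It rose by 0.28 on the log2 scale (limma adjusted p = 0.0461, SE 0.0877), with groups that did not overlap. Rorb lost its call in 9 and Npas2 in 12 of 28 alternative fits, each time with the same direction, and fits without 1 sample or 1 pair left 1 to 4 of the partners called.

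**Figure D5:**
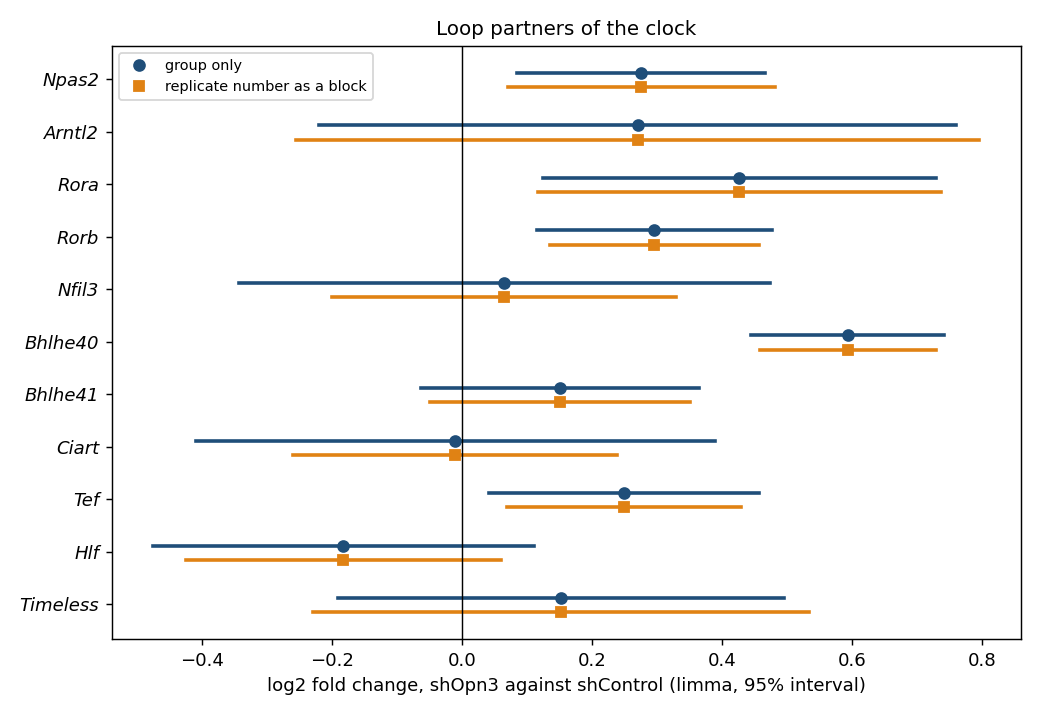
Log2 fold change of shOpn3 against shControl (horizontal axis) for the 11 loop partners tested, with 95% intervals from limma; blue circles are the fit with the group alone and orange squares the fit that adds the replicate number as a block. Bhlhe40 stands at 0.59, and the intervals of Ciart, Hlf, Nfil3, Timeless, Arntl2 and Bhlhe41 include 0.

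Ciart, a repressor of the same loop, was picked out once its values were known. It did not pass the test between groups (log2 fold change -0.01, limma adjusted p = 0.977). Same-numbered samples shared 92.8% of its within-group variation, and its averages over both nuclei were 125, 161, 156, 114 and 100 normalized counts in numbers 1 to 5. Numbers 2 and 3 were the highest and number 5 the lowest, as for Nr1d2.

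The enzymes that mark the PER and CRY proteins, or remove them, gave no limma call in either direction. Of 14 such kinases, phosphatases, ubiquitin ligase parts and the protease Usp2, 0 passed the limma test, while 6 had an unadjusted p under 0.05, against 32.0% of all genes tested. On the recovered reads edgeR called 0 of the 14, against 19.4% of all genes tested, and DESeq2 called 2, against 23.8%. With the block 2 rose (Usp2 and Ppp1cb), against 15.1% of all genes tested. Among 7 tested genes downstream of the clock, 1 rose and 0 fell with limma, against 10.4% and 8.48% of all genes tested. For these 7 genes edgeR called 0 and DESeq2 called 2. With the block 3 rose (Pdp1, Wee1 and Lonrf3), against 15.1% of all genes tested, and 1 fell (Nampt), against 15.2%. The gene called without the block was Pdp1, a phosphatase of the pyruvate dehydrogenase complex, 0.36 higher on the log2 scale (limma adjusted p = 0.0418, SE 0.112), and it lost its call in 13 of 28 alternative fits.

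Per1 is a target of CREB and of the glucocorticoid receptor, so lists of both kinds were set beside it. Of 14 CREB and activity-induced genes 7 rose, 0 fell and 7 did not pass the limma test, against 10.4% of all genes tested that rose. With the block 9 rose, the added genes being Nr4a1 and Junb, against 15.1%. Fos, an immediate early transcription factor, had 520, 230, 301, 272 and 405 normalized counts in shControl and 632, 550, 716, 920 and 690 in shOpn3, which is 1.06 higher on the log2 scale (limma adjusted p = 0.00424, SE 0.208). Fosb, Egr1, Egr2, Egr3 and Npas4, further activity-induced transcription factors, rose by 1.68, 1.36, 2.28, 2.33 and 1.39 on the log2 scale. Among the 7 that did not pass, Crem, Sik1, Dusp1 and Creb1 had -0.10, 0.05, -0.11 and 0.08. Bdnf had -0.23, Nr4a1 0.63 and Junb 0.98. Per1 had 0.13 on that scale, with an interval that ended at 0.38. The difference between Per1 and the genes of this list was not tested.

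Of 11 glucocorticoid-responsive genes tested, 2 rose, 1 fell and 8 did not pass the limma test. Over all genes tested 10.4% rose and 8.48% fell. With the block 4 rose and 1 fell, against 15.1% and 15.2% of all genes tested, the added genes being Fkbp5 and Cdkn1a. Mt2A, a metallothionein, rose by 2.07 (limma adjusted p = 0.00114, SE 0.323) and Nfkbia, the inhibitor of NF-kappaB, by 0.43 (limma adjusted p = 0.0183, SE 0.112) on the log2 scale. Tsc22d3, which encodes the glucocorticoid-induced leucine zipper, fell from 2443 ± 173 to 1896 ± 202 normalized counts (n = 5 each, SD), a change of -0.37 on the log2 scale (limma adjusted p = 0.0101, SE 0.0855). Nfkbia lost its call in 5 and Tsc22d3 in 2 of 28 alternative fits, each time with the same direction.

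Markers of the neighbouring suprachiasmatic nucleus were also measured. Their summed normalized counts were 171 to 246 in shControl and 193 to 459 in shOpn3. Of 5 tested 0 passed the limma test, against 18.8% of all genes tested, while 2 had an unadjusted p under 0.05, against 32.0%. With edgeR 1 was called, against 19.4%, and with DESeq2 1 was called, against 23.8%. Six6, too low to be tested, stood at 4.07 to 9.18 in shControl and at 0 to 4.83 in shOpn3. Vip, the largest part of the sum, stood at 83.3 to 139 in shControl and at 75.3 to 320 in shOpn3, a log2 fold change of 0.95 that did not pass without the block (limma adjusted p = 0.0698) and passed with it (limma adjusted p = 0.0336). Prok2 and Prokr2 had log2 fold changes of 0.76 and 0.47, and Lhx1 and Grp of -0.43 and -0.12, none of which passed with limma. The markers of this list thus did not move in 1 direction. The part of tissue from that nucleus in the clock gene levels was not tested.

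For each of the 10 genes, the 2 genes with the most similar deviations from the group means over the 10 samples were looked up among 13810 candidates with a symbol. Dbp was most like Wdr33 and Asxl1, Nr1d1 most like Polr3e and Dennd1a, Per1 most like Rfng and Capn10, and Clock most like Rab5a and Cep170. The likeness (Pearson) lay between 0.91 and 0.99 for the 20 genes so named, each value being the highest of many and resting on 5 pairs of nuclei. Of these 20 genes, 0 were clock genes or loop partners. The 10 clock genes and 11 partners tested are few among 13810 candidates, so a count of 0 says little. Between clock genes the same correlation ran from -0.82 (Cry1 and Nr1d2) to 0.94 (Per1 and Nr1d1).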

How the data were processed

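RNA sequencing of 10 supraoptic nuclei was deposited as 1 table. Per the submitters' processing notes, FastQC, STAR, featureCounts and DESeq2 were used, without versions. The genome build, annotation and use of strand are not given in the sources used here, so overlapping or antisense genes are uncertain. The deposited sample values are a signal, namely read counts divided by 1 size factor per sample by the authors. Whole reads were recovered for 100% of values (tolerance 1e-06). Per the file headers, the authors' table also holds their comparison: the log2 fold change with its error, the Wald score, and p-values before and after adjustment.

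Genes averaging 10 or more normalized counts were compared on the scale log2(normalized count + 1) with limma 3.58.1 in R 4.3.3 (group alone, trended eBayes, two-sided, Benjamini-Hochberg over 15597 genes, threshold 0.05). This scale understates changes of low genes. Alternatives were edgeR 4.0.16, DESeq2 1.42.0 and limma-voom on the recovered reads, other scalings, filters and pseudocounts, and samples left out. Fits were tested on simulated data. Depth limits precision: at the fewest reads of a clock gene (315, Cry1) counting error alone was 5.63%. P-values measure the spread between these samples.

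Deviations of same-numbered samples correlated across genes in all 5 pairs (r from 0.12 in number 4 to 0.44 in number 1), so the numbers were taken to pair the samples. Clock genes, lists and tests were chosen with earlier results of these data known. Beside the 10 genes, the text names Opn3, up to 6 called genes per pathway list and up to 2 per marker list by smallest p, and the 2 genes most like each clock gene. Ciart, the suprachiasmatic markers, genes called with the block alone and the uncalled CREB and activity-induced genes were named after their values were seen. Promoter windows are from RefSeq (GRCr8), where 9 of the 10 genes matched by symbol or synonym (all but Cry1).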

Additional observations from a re-analysis of the deposited data

How the results depend on the processing

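None of the 280 values that the 10 clock genes took in 28 alternative fits passed an adjusted p of 0.05, and 18 of them turned sign. Arntl, Per1, Per2 and Dbp kept their sign throughout. With total read scaling, which moved the median of all genes from -0.019 to 0.051, Clock stood at 0.045 and Nr1d1 at 0.049. With quantile normalization Clock stood at 0.025, and with limma-voom and quality weights Nr1d1 stood at 0.075 and Nr1d2 at -0.042. With samples or pairs left out, Clock ranged from -0.063 to 0.020, Per3 from -0.012 to 0.11, Cry1 from -0.18 to 0.040, Cry2 from -0.025 to 0.080, Nr1d1 from -0.13 to 0.096 and Nr1d2 from -0.023 to 0.13.

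All genes called numbered 2940, and 5085 with limma-voom and quality weights. Fits that had the replicate number as a block called 4726 (limma), 4777 (edgeR) and 4587 (DESeq2) genes, and among loop partners 5 (limma), 4 (edgeR) and 5 (DESeq2). Partners called were also 5 with total read scaling and with limma-voom. With samples or pairs left out, the calls ranged from 1603 to 3057 for all genes and from 1 to 4 for the partners. Genes that differed between numbers were 416, but 695 with edgeR, 761 with TMM scaling and 745 with quantile normalization, where 3 clock genes were called. Without 1 number they ranged from 7 to 2353, and the clock genes from 0 to 2. The block changed no call of a clock gene between the groups. The cause of these shifts was not tested.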
